A study of Mus musculus with 12 samples.

Results

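The ER chaperones and unfolded protein response (UPR) genes described here are 10 mouse genes: *Hspa5*, *Hsp90b1*, *Calr*, *Canx*, *Pdia4*, *Dnajb9*, *Sdf2l1*, *Manf*, *Herpud1* and *Xbp1*. They were taken by symbol, each through its Ensembl identifier, from 55357 gene identifiers in each of 2 tables of raw RNA-seq counts, and all 10 passed the filter on low counts in both tables. RNA had been sequenced in 12 libraries that form 4 groups of 3. In the liver groups, wild-type C57BL6/J males aged 8 to 9 weeks received a daily gavage over 7 days, either of esculetin (a coumarin found in plants, 90 mg/kg/d) or of the 2.5% Tween-80 vehicle. All of these mice ate a control diet (10% of kcal from fat) for 4 days and then a high-fat diet (60%) for 3 days, and each liver library came from 2 mice, so a liver replicate is a pool. In the cell groups, RAW264.7 cells, an established mouse macrophage line, were all loaded with DIL-oxLDL, a dye-labelled oxidized low-density lipoprotein, at 25 µg/mL for 24 h, with esculetin at 40 µg/mL or with DMSO. The controls of both tables were thus lipid-loaded too, and no unloaded group was compared. The libraries of 1 cell line were not stated to be separate cultures, so p-values for the cells measure the spread between these libraries, which may be technical.

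The endoplasmic reticulum (ER) folds secreted and membrane proteins with Hsp70- and Hsp90-type chaperones, lectin chaperones that read sugar chains, and oxidoreductases that form disulfide bonds. When unfolded proteins accumulate, the sensors IRE1, PERK and ATF6 start the UPR, in which spliced XBP1, ATF4 and cleaved ATF6 induce chaperones and ER-associated degradation (ERAD). Hepatocytes secrete most plasma proteins and lipoproteins and carry an extensive rough ER, and in macrophages the UPR is known to accompany cholesterol loading.

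Coordinates are on GRCm39. *Hspa5* (ENSMUSG00000026864, chr2:34661982-34668880, plus strand) encodes BiP, the ER Hsp70 that also holds the UPR sensors inactive. *Hsp90b1* (ENSMUSG00000020048, chr10:86526073-86541446, minus strand) encodes GRP94, the ER Hsp90. *Calr* (ENSMUSG00000003814, chr8:85567946-85573667, minus strand) and *Canx* (ENSMUSG00000020368, chr11:50183939-50216529, minus strand) encode calreticulin and calnexin, the soluble and the membrane-bound lectin chaperone. *Pdia4* (ENSMUSG00000025823, chr6:47770077-47790462, minus strand) encodes ERp72, a protein disulfide isomerase. *Dnajb9* (ENSMUSG00000014905, chr12:44252341-44257171, minus strand) encodes ERdj4, an Hsp40 cochaperone of BiP that takes part in ERAD and represses IRE1. *Sdf2l1* (ENSMUSG00000022769, chr16:16948002-16950252, minus strand) encodes a soluble ER protein found in BiP and ERdj complexes. *Manf* (ENSMUSG00000032575, chr9:106715511-106769727, minus strand) encodes a secreted, ER-resident factor that binds BiP. *Herpud1* (ENSMUSG00000031770, chr8:95113022-95123141, plus strand) encodes HERP, a membrane component of the ERAD machinery. *Xbp1* (ENSMUSG00000020484, chr11:5470606-5483027, plus strand) encodes the transcription factor activated by IRE1-dependent splicing, and counts per gene locus do not separate its spliced from its unspliced form. Exons of *Rabepk* overlap those of *Hspa5* on the opposite strand, as do exons of *Gm15890* for *Herpud1*, of *Ccdc117* for *Xbp1* and of *Dcaf1* for *Manf*, while *Rbm15b* overlaps *Manf* and *Gm15344* overlaps *Hsp90b1* on the same strand. The strand setting of the counting was not stated, so reads in these overlaps could not be assigned with certainty.

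The promoters are shown because the ER stress element (ERSE) links several of these genes through a shared regulatory sequence. The ERSE reads CCAAT, then 9 bases of any kind, then CCACG, and is the textbook site of NF-Y and ATF6. Both strands were searched from 250 bases before to 50 after the RefSeq start site. RefSeq promoter sequences (table build GRCm38.p6) matched 9 of the 10 genes and were placed on GRCm39 by exact match, and *Manf* had no entry. The ERSE was found in 4 of the 9 promoters, those of *Hspa5*, *Hsp90b1*, *Calr* and *Canx*, against 39 of all 32851 promoters in the table (0.119%). The related ERSE-II, which reads ATTGG, any base and CCACG, was found in *Herpud1* alone among the 9 and in 0.0365% of all promoters, and *Herpud1* also held the C/EBP-ATF composite letters TGATGCAA (0.895% of all promoters). The stretches below lie upstream of the RefSeq start and of the start of the GENCODE canonical transcript. The gene coordinates above span all transcripts and reach into the stretches of *Hspa5*, *Hsp90b1* and *Herpud1*. All stretches are written along the strand of the gene, with capitals marking ERSE letters, or in *Herpud1* the composite and then the ERSE-II. They cover chr2:34661952-34662101, chr10:86541379-86541528, chr8:85573668-85573810, chr11:50216530-50216679 and chr8:95112887-95113036 in that order.
Hspa5 promoter: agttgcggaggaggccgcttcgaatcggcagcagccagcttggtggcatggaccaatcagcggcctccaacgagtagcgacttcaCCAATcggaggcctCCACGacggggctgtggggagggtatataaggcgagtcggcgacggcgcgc
Hsp90b1 promoter: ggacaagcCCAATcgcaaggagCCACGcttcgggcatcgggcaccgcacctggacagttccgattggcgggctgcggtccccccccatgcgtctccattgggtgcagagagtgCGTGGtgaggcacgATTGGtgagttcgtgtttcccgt
Calr promoter: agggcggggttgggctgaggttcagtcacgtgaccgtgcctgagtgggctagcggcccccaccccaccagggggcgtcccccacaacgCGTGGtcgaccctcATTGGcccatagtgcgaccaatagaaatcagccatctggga
Canx promoter: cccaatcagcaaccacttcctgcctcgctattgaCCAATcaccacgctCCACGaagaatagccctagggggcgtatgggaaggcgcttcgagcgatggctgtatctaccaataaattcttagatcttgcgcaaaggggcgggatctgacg
Herpud1 promoter: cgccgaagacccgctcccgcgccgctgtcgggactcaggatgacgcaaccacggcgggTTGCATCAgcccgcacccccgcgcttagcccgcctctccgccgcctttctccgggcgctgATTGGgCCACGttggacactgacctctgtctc
The *Hspa5* ERSE lay 65 to 47 bases before the RefSeq start. *Hsp90b1* held a pair of them, at -212 to -194 on the gene's strand and at -107 to -89 on the other, where the element reads in reverse as CGTGG and then ATTGG. The *Calr* element, at -162 to -144, was also on the other strand, and that of *Canx* lay at -145 to -127. The outer letters of the element were common, with CCAAT in 8 of the 9 promoters and in 37.4% of all, and CCACG in 8 of the 9 and in 32.8% of all. Every ERSE match contains both, so these counts overlap. The UPR element core TGACGTGG (0.676% of all promoters) and the cAMP response element TGACGTCA (1.79%) were in none of the 9. The *Herpud1* composite, at -112 to -105, was on the other strand and so reads in reverse as TTGCATCA. A match describes letters in this window and not a bound site.

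Liver libraries held 14659876 to 20346460 counts, and cell libraries 13752842 to 20001959. The 8 hepatocyte markers summed to between 105855 and 134721 CPM (counts scaled to a common library size with TMM factors) in the liver libraries and to at most 0.570 CPM in the cells, where 5 of the 8 were at 0 in all 6 libraries. The cells expressed *Csf1r*, *Cd68* and other macrophage genes, while *C1qa*, *C1qb* and *C1qc* were at 0 in all 6 libraries. The control liver library of replicate 1 stood apart, at -33.4 on a first principal component that held 47.2% of the variance, with the other 5 between -2.64 and 12.6.

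The share of all counts that fell on the 10 genes was 0.197 to 0.232% in liver libraries and 0.583 to 0.746% in cell libraries. Per length of the canonical transcript (CPM per kilobase, mean ± SD of 3 control libraries), *Calr* had the highest level in both tables, 283 ± 24.3 for liver and 740.4 ± 67.0 for cells. *Dnajb9* had the lowest, 12.9 ± 3.53 and 6.26 ± 0.588. The order between these ends differed. In the control liver, *Xbp1* (134 ± 12.9) and *Herpud1* (80.6 ± 17.5) followed *Calr*, ahead of *Hspa5* (67.3 ± 18.3), *Hsp90b1* (53.9 ± 14.9), *Canx* (43.3 ± 3.81) and *Manf* (39.8 ± 13.9), and the ranges of mean ± SD overlapped between neighbours from *Herpud1* to *Pdia4* (26.2 ± 0.644), which came next. *Sdf2l1* (19.4 ± 5.72) followed, and its range overlapped that of *Dnajb9* but not that of *Pdia4*. In the control cells the chaperones led, with *Hspa5* (480.5 ± 29.4), *Hsp90b1* (373 ± 65.0) and *Canx* (259 ± 17.2) after *Calr*. *Xbp1* (161 ± 4.15), *Sdf2l1* (108 ± 9.31), *Manf* (68.0 ± 2.63), *Pdia4* (45.8 ± 4.33) and *Herpud1* (25.9 ± 0.813) followed, and no neighbouring ranges overlapped. The tables were scaled separately, so levels are compared within a table only.

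**Figure D1:**
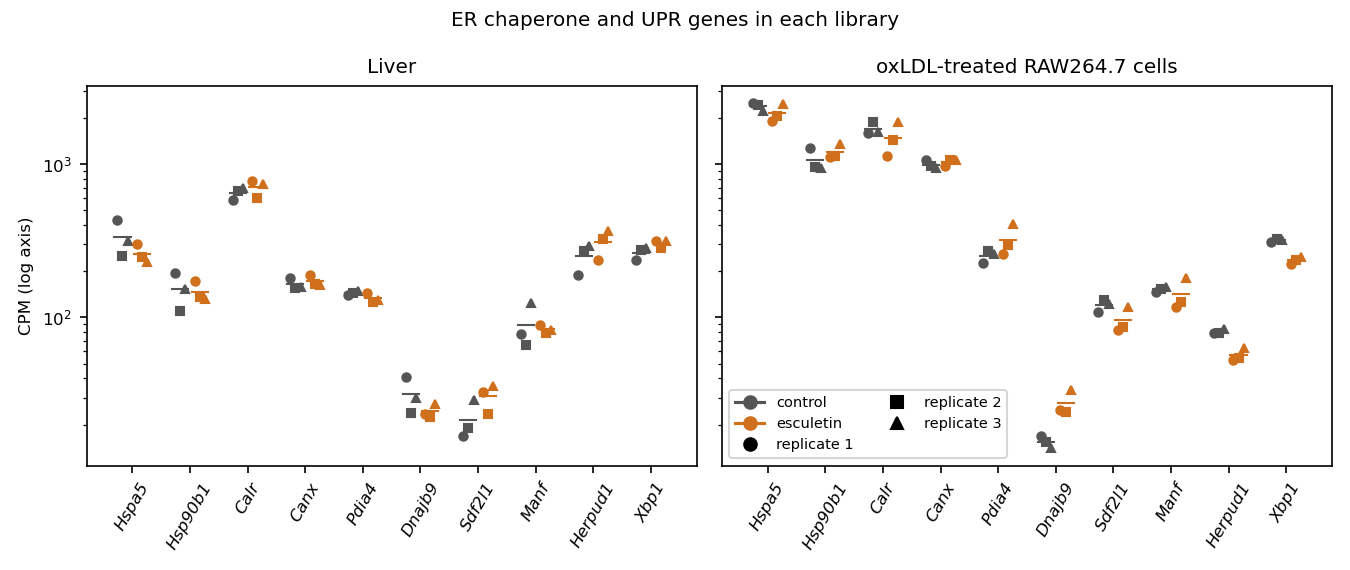
CPM on a log axis for each of the 10 genes, with control libraries in grey, esculetin libraries in orange, a symbol per replicate and a line at each group mean of 3. In the liver the groups separate for *Xbp1* only, and in the cells for *Dnajb9* (14.01 to 16.9 against 24.2 to 33.5 CPM), *Herpud1* and *Xbp1*.

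The liver comparison asks whether esculetin changed these transcripts in the liver of mice fed lipid-rich meals. None of the 10 genes passed the test (edgeR quasi-likelihood test, adjusted p under 0.05), beside 0.0859% of all 12813 genes tested. At an unadjusted p under 0.05 there was 1 gene, *Sdf2l1*, beside 8.37% of all genes, and DESeq2 and limma-voom also called 0 of the 10. Fitted log2 fold changes ran from -0.37 to 0.50 with a median of 0.01, against -0.02 over all genes, and 5 genes read higher, where 46.5% of all genes did, and 5 lower under esculetin. In whole liver, fewer cells of a type and less RNA per cell cannot be told apart.

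*Hspa5* read 431, 252 and 317 CPM in control libraries 1, 2 and 3 and 300, 247 and 229 CPM under esculetin, a log2 fold change of -0.37 ± 0.18 (SE, adjusted p = 0.636). The groups overlapped, and the control library of replicate 1, the one that stood apart, was the highest of the 6. Without it the log2 fold change of *Hspa5* was -0.13 (adjusted p = 0.816). *Dnajb9*, the BiP cochaperone, showed the same arrangement, with 41.1, 24.0 and 29.8 CPM in control libraries and 23.3, 22.6 and 27.4 CPM under esculetin (-0.37 ± 0.18, adjusted p = 0.634). Its value without that control library was -0.13 (adjusted p = 0.827). *Hsp90b1* read 194, 109.6 and 154 CPM against 172, 137 and 133 CPM, again with control replicate 1 on top and the esculetin libraries inside the control range (-0.05 ± 0.19, adjusted p = 0.961). Its sign was not stable, and its log2 fold change was 0.17 without that library.

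The lectin chaperones and the isomerase also did not pass the test. *Calr* read 585, 664 and 693 CPM in control libraries and 775, 599 and 745 CPM under esculetin (0.13 ± 0.14, adjusted p = 0.834). *Canx* read 182, 155 and 158 CPM against 189.8, 165 and 163 CPM (0.07 ± 0.12, adjusted p = 0.909). *Pdia4* read 140.5, 144 and 148 CPM against 145, 126 and 129 CPM (-0.11 ± 0.11, adjusted p = 0.809). All 3 genes had overlapping groups, and the 95% confidence interval of *Pdia4*, -0.36 to 0.13, was the narrowest of the 10.

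*Sdf2l1* had the largest fitted rise in the liver without passing the test. Its level was 16.8, 19.1 and 28.8 CPM in control libraries and 32.6, 23.6 and 35.5 CPM under esculetin (0.50 ± 0.21, adjusted p = 0.545). Control replicate 3 was above esculetin replicate 2, so the groups overlapped. *Manf*, the BiP-binding factor, read 77.8, 65.7 and 125 CPM against 88.6, 78.8 and 83.1 CPM (-0.10 ± 0.20, adjusted p = 0.916), with all esculetin values inside the control range.

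Of the UPR transducer and the ERAD gene, *Xbp1* was the only one of the 10 whose groups did not overlap, beside 14.5% of all tested genes. It read 236, 276 and 282 CPM in control libraries and 315, 285 and 314 CPM under esculetin (0.20 ± 0.12, adjusted p = 0.679). The lowest esculetin library lay just above the highest control library. *Herpud1* read 189.8, 270.2 and 294 CPM against 236, 326 and 365 CPM (0.30 ± 0.19, adjusted p = 0.692), where control replicate 1 was the lowest library. Its log2 fold change was 0.13 without that library and 0.15 without esculetin replicate 3. None of the 10 liver marker lists, among them hepatocyte, Kupffer cell and endothelial genes, held a called gene. The summed plasma cell and B cell list read 12.3 to 15.0 CPM in control livers and 7.85 to 10.9 CPM under esculetin, and the pancreatic acinar list 16.5 to 25.3 CPM and 26.0 to 31.5 CPM. Neither sum overlapped between the groups, while the sums of all other lists did. For the plasma cell and B cell list 4 of 6 genes could be tested and for the acinar list 1 of 7, with *Pnlip* and *Cel* at 0. The part of these lists in the liver values was not tested.

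The cell comparison asks whether esculetin changed these transcripts in oxLDL-loaded macrophages. *Dnajb9* rose 1.79-fold, and *Herpud1*, *Xbp1* and *Sdf2l1* fell, to 0.701, 0.741 and 0.798 of the control level, while the major chaperones *Hspa5*, *Hsp90b1*, *Calr* and *Canx* did not pass the test. The 4 called genes were 40.0% of the 10, beside 57.7% of all 13277 genes tested, with 1 gene higher (28.7% of all genes) and 3 lower (29.0%). *Dnajb9* was the single gene of the 10 that changed over 1.5-fold. The groups did not overlap for 3 of the 10 genes, beside 64.1% of all genes, and the median log2 fold change was -0.13 against -0.01 over all genes. The share called among the 10 was thus not above that of the whole table.

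*Dnajb9* read 16.9, 15.3 and 14.01 CPM in the control libraries and 24.7, 24.2 and 33.5 CPM under esculetin, a log2 fold change of 0.84 ± 0.15 (adjusted p = 0.000536). Every esculetin library was above every control library, and replicate 3 was the highest. *Sdf2l1*, of the same BiP complexes, read 109, 129 and 123 CPM against 82.6, 86.9 and 118 CPM (-0.33 ± 0.13, adjusted p = 0.0486). Its groups overlapped through esculetin replicate 3, and its call was lost with RLE size factors (adjusted p = 0.0579), with a filter of 1 CPM in 3 libraries (adjusted p = 0.0518) and in 4 of the 6 fits that left out 1 library. These were the fits without control replicates 2 or 3 or esculetin replicates 1 or 2, with adjusted p from 0.119 to 0.186.

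*Herpud1* read 79.0, 79.3 and 83.5 CPM in control libraries and 52.5, 54.0 and 62.8 CPM under esculetin (-0.51 ± 0.09, adjusted p = 0.000670). The control libraries were within 5 CPM of each other and all above the esculetin libraries. *Xbp1* read 309, 326 and 318 CPM against 222, 238 and 246 CPM (-0.43 ± 0.08, adjusted p = 0.000681), also without overlap. *Dnajb9*, a known target of spliced XBP1, and the total *Xbp1* counts moved in opposite directions in the same libraries. Those counts do not separate the spliced from the unspliced form, so the spliced form was not measured.

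*Hspa5*, the most counted of the 10, read 2488, 2438 and 2214 CPM in the control cells and 1907, 2061 and 2477 CPM under esculetin (-0.15 ± 0.11, adjusted p = 0.285). Its 95% confidence interval was -0.40 to 0.10. *Calr* read 1595, 1871 and 1616 CPM against 1129.9, 1425 and 1872 CPM (-0.20 ± 0.16, adjusted p = 0.299), and in both genes esculetin replicate 1 was the lowest library and replicate 3 lay at the top of the control range. *Hsp90b1* read 1267, 956 and 942 CPM against 1104, 1133 and 1352 CPM (0.18 ± 0.13, adjusted p = 0.249). *Canx* read 1061, 967 and 935 CPM against 970.5, 1057 and 1068 CPM (0.06 ± 0.09, adjusted p = 0.572). The groups overlapped for each of these 4 chaperones, and *Hsp90b1* was called only without control replicate 1 (0.33, adjusted p = 0.0283). *Manf* read 146, 154 and 158 CPM against 118, 127 and 181 CPM (-0.11 ± 0.14, adjusted p = 0.535), a spread of esculetin libraries on either side of the control. *Pdia4* read 225, 269.8 and 260.2 CPM against 259, 295 and 407 CPM (0.35 ± 0.15, adjusted p = 0.0584), where replicate 3 gave most of the difference and the log2 fold change without it was 0.14. Without esculetin replicate 1 *Pdia4* was called (0.48, adjusted p = 0.00508).

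The esculetin libraries of the cells were not alike for these genes. Replicate 3 read above both other esculetin libraries for 10 of the 10 genes, as it did for 39.7% of all tested genes, and replicate 1 read below both for 9 of the 10. For replicate 1 the share of all tested genes below both was not computed. Its median log2 ratio to the mean of the others was -0.22 over the 10 genes and -0.02 over all tested genes. The median log2 ratio of replicate 3 to the mean of the others was 0.38 over the 10 genes and 0.01 over all tested genes. The summed level of the 10 genes was 7296, 7204 and 6663 CPM in control libraries and 5871, 6501 and 7818 CPM under esculetin, so replicate 3 was above and replicates 1 and 2 below all control libraries. Without replicate 3, 7 of the 10 genes were called in place of 4, beside 55.4% of all 13682 genes tested in that fit: *Hspa5* (-0.27, adjusted p = 0.0388), *Calr* (-0.41, adjusted p = 0.0113) and *Manf* (-0.33, adjusted p = 0.00575) joined those that fell, and *Dnajb9* (0.66), *Sdf2l1* (-0.51), *Herpud1* (-0.60) and *Xbp1* (-0.47) were still called. Among marker lists, the summed macrophage list read 1993 to 2219 CPM in the control cells and 4738 to 7271 CPM under esculetin, with *Adgre1*, *Csf1r*, *Itgam* and *Lyz2* called higher and 3 of the 10 listed genes at 0. The plasma cell and B cell list read 171 to 184 CPM in control libraries and 29.8 to 56.9 CPM under esculetin, with *Mzb1* and *Ighm* called lower. The cholangiocyte list read 797 to 918 CPM in control libraries and 4793 to 9730 CPM under esculetin, with *Spp1* called higher and *Krt19* and *Sox9* at 0. Of the remaining lists, *Cd5l* and *Col1a1* were called lower. The part of these changes in the results above was not tested.

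**Figure D2:**
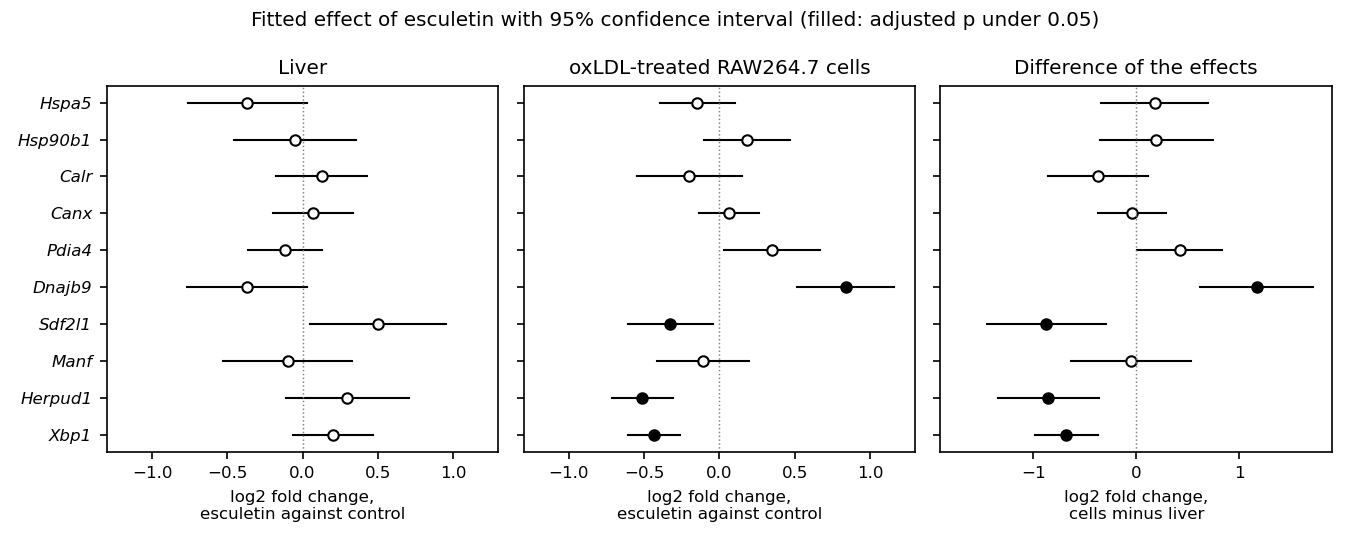
Fitted log2 fold change with its 95% confidence interval for each gene for liver, for cells and for the difference of both effects, with filled points for an adjusted p under 0.05. No liver interval is filled, *Dnajb9* lies to the right in the cells (0.84) and *Herpud1* (-0.51), *Xbp1* (-0.43) and *Sdf2l1* (-0.33) to the left, and the same 4 genes are filled in the difference panel.

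A call in the cells and none in the liver does not show that the effects differ, so the difference was tested with 4 groups in 1 model. That model scaled all 12 libraries together and used 1 estimate of the spread per gene for liver pools and cell libraries alike. Its differences therefore need not equal those between the separate fits, and its p-values share the limit given for the cells. The difference passed for 4 of the 10 genes, beside 27.1% of all 15709 genes tested, with 1 higher in the cells (13.4% of all genes) and 3 lower (13.7%). The effect on *Dnajb9* was higher in the cells by 1.17 ± 0.26 on the log2 scale (adjusted p = 0.00311), with fitted values of -0.37 for liver and 0.84 for cells. The effect was lower in the cells for *Sdf2l1*, with a difference of -0.87 ± 0.27 (adjusted p = 0.0251), for *Herpud1*, with -0.85 ± 0.23 (adjusted p = 0.0119), and for *Xbp1*, with -0.68 ± 0.14 (adjusted p = 0.00251). These 3 genes read higher with esculetin in the liver, without passing the test there, and fell in the cells. The other 6 genes were not called. Their 95% confidence intervals, not adjusted for the number of genes, ran from -0.34 to 0.70 for *Hspa5*, -0.35 to 0.74 for *Hsp90b1*, -0.37 to 0.29 for *Canx* and -0.63 to 0.53 for *Manf*. The interval of *Calr* was -0.85 to 0.12, and that of *Pdia4*, 0.0032 to 0.84, lay above 0, with an adjusted p of 0.128. Without liver esculetin replicate 3 only *Dnajb9* and *Xbp1* passed, with *Herpud1* at adjusted p = 0.0569 and *Sdf2l1* at 0.0928. The *Sdf2l1* difference also lost its call without liver control replicate 1 or 2, liver esculetin replicate 1, cell control replicate 2 or 3 or cell esculetin replicate 1 or 2, with values from -0.86 to -0.67, and *Pdia4* passed (0.54) without cell esculetin replicate 1. Tissue, dose and route of treatment differed together between the tables and cannot be told apart.

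Ratios within a library do not depend on its scaling. Per 1000 counts of *Hspa5*, *Dnajb9* had 6.79, 6.29 and 6.33 counts in the control cells and 13.0, 11.7 and 13.5 counts with esculetin. Replicate 3 was thus close to the other esculetin libraries in this ratio, although it was the highest in CPM. *Herpud1* had 31.8, 32.5 and 37.7 counts per 1000 of *Hspa5* in the control cells and 27.6, 26.2 and 25.4 counts with esculetin. *Xbp1* had 124, 134 and 144 counts against 117, 115 and 99.4 counts. Neither ratio overlapped between the groups of the cells. The 3 genes set against *Hspa5* were those whose CPM groups already did not overlap in the cells, beside 64.1% of all genes. Ratios to *Hspa5* were not computed for all genes, so they have no such share beside them. In the liver the *Dnajb9* ratio was 95.3, 95.1 and 94.2 in the control and 77.7, 91.6 and 119.9 with esculetin, which overlapped. The liver *Herpud1* ratio was 440.4, 1072 and 928 in the control against 787, 1321 and 1593 with esculetin, and control replicate 1 was the lowest there. The liver *Xbp1* ratio was 547, 1096 and 891 against 1050.3, 1155 and 1371, also overlapping.

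**Figure D3:**
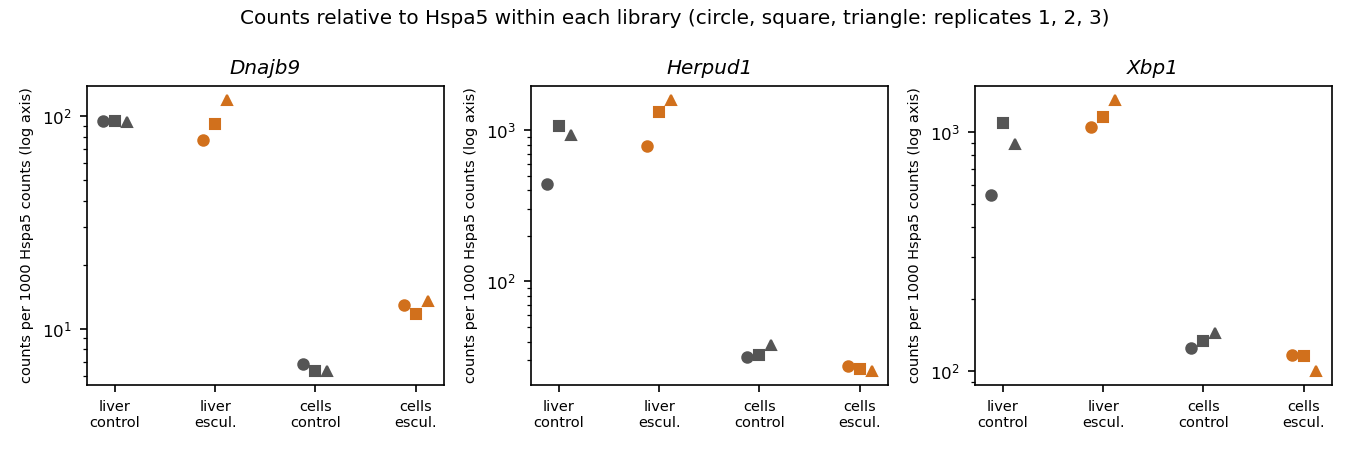
Counts of *Dnajb9*, *Herpud1* and *Xbp1* per 1000 counts of *Hspa5* within each library, on log axes, with a symbol per replicate and esculetin in orange. The cell groups do not overlap in any panel (*Dnajb9* 6.29 to 6.79 against 11.7 to 13.5), and the liver groups overlap in each. In the cells these 3 genes already did not overlap in CPM, beside 64.1% of all genes.

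The promoter letters can be set beside these values. In the cells the 4 genes with an ERSE, *Hspa5*, *Hsp90b1*, *Calr* and *Canx*, had log2 fold changes between -0.20 and 0.18 and none was called. Of the 5 genes without one, *Pdia4*, *Dnajb9*, *Sdf2l1*, *Herpud1* and *Xbp1*, 4 were called, with log2 fold changes from -0.51 to 0.84. Of all tested genes in the cells, 57.7% were called, and *Sdf2l1* kept its call in 8 of 14 alternatives only. With the ERSE-II counted too, 1 of 5 genes with either element was called and 3 of 4 genes without. *Herpud1*, with the ERSE-II and composite letters, was among the genes that fell. In the liver no gene of either kind was called. These are counts over 9 promoters and were not tested.

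The other genes of the ER folding and stress system came from 7 lists with 103 genes. In the liver 0 of 101 tested genes were called by edgeR, 10 (beside 8.37% of all genes) had an unadjusted p under 0.05, limma-voom called 0 and DESeq2 called 1. That gene was *Chac1*, a glutathione-degrading target of ATF4 and CHOP, with 1.38 ± 0.177 CPM (SD, 3 libraries) in control livers and 4.05 ± 1.35 CPM under esculetin (log2 fold change 1.56 ± 0.30, edgeR adjusted p = 0.110). The PERK gene *Eif2ak3* had a log2 fold change of -0.64 (adjusted p = 0.334), *Syvn1*, the ERAD ubiquitin ligase HRD1, -0.51 (adjusted p = 0.290), and *Sec61g*, of the translocon, 0.62 (adjusted p = 0.319). That of *Bbc3* was -0.71 (adjusted p = 0.248). *Derl3*, with a mean of only 0.607 CPM in control livers, had 1.55 (adjusted p = 0.478). In the cells 60 of 99 tested genes were called (60.6%), 38 higher and 22 lower, close to the 57.7% of all genes, and the median log2 fold change was 0.13.

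Within the lists the cell changes went both ways, where 28.7% of all tested genes rose and 29.0% fell. The lists are described by their counts and were not tested against other genes. Of 15 tested oxidative folding genes, 4 rose and 5 fell. *Creld2* rose from 43.3 ± 1.60 to 85.2 ± 26.3 CPM and *Tmx1* from 49.5 ± 5.31 to 81.9 ± 2.69 CPM, while the isomerase gene *Pdia5* fell from 21.1 ± 1.34 to 10.0 ± 0.832 CPM and *Qsox1*, a sulfhydryl oxidase, by 0.59 on the log2 scale. Of 15 Hsp70 cochaperones and other ER chaperones, 6 rose and 6 fell. The J-domain cochaperones *Dnajc3* (0.79, adjusted p = 7.79e-05) and *Dnajb11* (0.60, adjusted p = 0.000898) rose, as *Dnajb9* did, whereas *Sil1*, the nucleotide exchange factor of BiP, fell by 1.09 and the prolyl isomerase *Fkbp7* by 1.70. Of the 12 glycoprotein quality control genes 4 rose and 0 fell, with *Edem1*, which directs misfolded glycoproteins to degradation, at 706 ± 11.6 CPM in control libraries and 1139 ± 142 CPM under esculetin (0.69, adjusted p = 0.000160).

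Of 15 tested ERAD genes, 9 rose and 2 fell, while the member *Herpud1* fell. *Selenos* rose by 1.07 on the log2 scale and *Erlec1* by 0.78, and the conjugating enzyme gene *Ube2g2* fell by 0.78. Of 19 translocation and signal peptide processing genes 7 rose and 4 fell, with *Spcs2* of the signal peptidase (0.82) and *Sec63* (0.80) higher and the KDEL receptor gene *Kdelr1* lower (-0.86). Of 12 UPR sensors and transducers 4 rose and 2 fell: the ATF6-cleaving proteases *Mbtps1* (0.84) and *Mbtps2* (0.66) and *Wfs1* (1.38) rose and *Atf6b* fell by 0.52. Of 11 genes of the PERK-ATF4-CHOP arm 4 rose and 3 fell. *Atf3* rose from 61.4 ± 2.66 to 251 ± 34.7 CPM and *Ppp1r15a*, the eIF2α phosphatase subunit GADD34, from 47.2 ± 3.12 to 81.9 ± 7.04 CPM, while *Bbc3* fell from 89.6 ± 6.97 to 27.0 ± 2.19 CPM and *Nupr1* from 26.2 ± 0.952 to 10.8 ± 1.18 CPM. *Chac1*, which DESeq2 called in the liver, read 3.64 ± 0.540 CPM in the control cells and 4.25 ± 0.417 CPM under esculetin (0.23, adjusted p = 0.380).

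**Figure D4:**
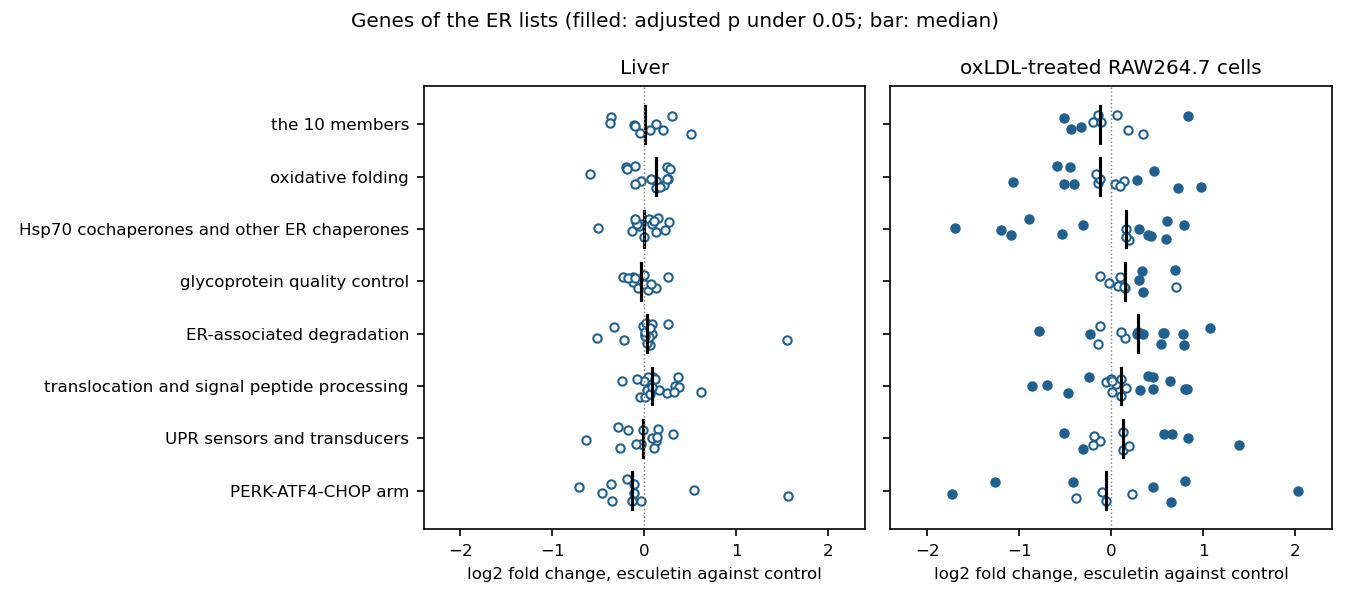
Log2 fold change of each tested gene of the 10 described here and of the 7 other lists, for liver and cells, with a bar at the median of each list and filled points for an adjusted p under 0.05. No point is filled in the liver, and in the cells filled points lie on both sides of 0 in all but the glycoprotein quality control list, where 4 rose and 0 fell.

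The 10 genes did not share 1 profile. After centring log2 CPM within each table, *Manf* (Pearson r = 0.78 over 12 libraries) and *Calr* (0.69) were most like the mean of the other 9 genes, and *Herpud1* (-0.04) and *Dnajb9* (-0.11) least. In the 6 cell libraries *Hspa5* (0.85), *Calr* (0.86) and *Manf* (0.93) followed the mean of the others closely, while *Dnajb9* did not (-0.16). In the liver libraries the value for *Hspa5* was near 0 (-0.0019). Outside all lists, the genes most like the mean of the 10 among 5293 candidates were *Foxp4* (0.91), *Nek6* (0.91) and *Eif2b1* (0.88). These correlations describe 12 libraries that share scaling and depth within a table, and these 3 genes were picked as the highest of many.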

How the data were processed

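RNA from mouse liver and RAW264.7 cells was sequenced as paired ends. The authors deposited raw, whole-number counts for each gene in a liver table and a cell table. Per the study's methods and the labels, the authors mapped reads to GRCm39 with HISAT2 2.2.1 and counted with featureCounts. The annotation release, strandedness and handling of multi-mapping reads are not given in the sources used here. Symbols came from GENCODE (54749 of 55357 identifiers matched).

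Groups came from the labels, and the tables were fitted separately with edgeR 4.0.16 under R 4.3.3 (filterByExpr, TMM factors, quasi-likelihood test, treatment as the only term), and a 4-group model of all 12 libraries gave the difference of effects. P-values were two-sided and Benjamini-Hochberg adjusted over all tested genes, with calls at an adjusted p under 0.05. An exact permutation test of 3 against 3 cannot go below 0.1. SE was the size of the fold change (log2) divided by the root of the F statistic. Level per kilobase used the canonical transcript, and correlations used log2 CPM with 0.5 CPM added. The script was tested on simulated data.

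The 10 genes and the lists were chosen with earlier results of these data known. Beside the 10, the text names up to 4 genes of each list and comparison with the smallest p, the 4 genes most alike, and marker and overlapping genes. Of these, 2 are not reported here. Alternatives were 3 scalings, 2 filters, DESeq2 1.42.0, limma-voom (limma 3.58.1), the study's criterion (p under 0.05, fold over 1.5, on limma-voom fits), a replicate block and leaving out each library. Python 3.11.15 with matplotlib 3.10.9 drew the figures, and pandas 2.3.3 and numpy 2.4.6 read the tables.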

Additional observations from a re-analysis of the deposited data

Results flagged for a closer look

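The effect of esculetin differed between the cells and the liver for 4 of the 10 genes in the test of the difference itself (edgeR, adjusted p under 0.05), beside 27.1% of all genes tested. The difference in log2 fold change, cells minus liver, was 1.17 for *Dnajb9*, -0.87 for *Sdf2l1*, -0.85 for *Herpud1* and -0.68 for *Xbp1*. For *Dnajb9* the fitted effects were -0.37 (liver) and 0.84 (cells), and all 3 esculetin libraries of the cells were above all 3 control libraries. With 3 libraries a group, no outlier test of single values was run.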

How the results depend on the processing

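The calls of *Dnajb9*, *Herpud1* and *Xbp1* in the cells held in 14 of 14 alternatives each, with log2 fold changes of 0.66 to 0.92, -0.60 to -0.46 and -0.50 to -0.39. *Sdf2l1* was called in 8 of 14 and *Pdia4* in 7 of 14, and no member was called in the liver in any of 14. In the test of the difference, *Dnajb9* and *Xbp1* passed in 20 of 20, *Herpud1* in 19 and *Sdf2l1* in 12. The number of genes called in the liver, 11, became 0 with library size only, 339 with no filter on low counts, 98 with DESeq2, 499 by the study's criterion and 0 to 31 without 1 library. Other ER genes called in the liver, 0, became 5 with no filter (*Syvn1*, *Derl3*, *Sec61g*, *Chac1* and *Bbc3*) and 1 with DESeq2. Of all genes, these settings called 1.52% and 0.765%. The study's criterion, on the limma-voom fits made here, called 5041 genes in the cells (38.0% of all tested). It called 1 of the 10 members there, *Dnajb9*. These fits called more genes in the cells than the study reported, so the count is not the study's own. Members called in the cells numbered 3 to 7 without 1 library, beside 47.6% to 57.8% of all genes in those fits. Members whose effects differed numbered 2 to 4, beside 27.1% of all genes in the fit with every library. The cause of these changes was not tested.

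Whether replicate numbers pair the libraries could not be decided with 3 libraries a group. The correlations of same-numbered libraries were small, 0.153, -0.0079 and 0.112 in the liver and 0.188, -0.039 and 0.107 in the cells. Yet 2 of 3 libraries correlated best with their own number, in the liver and in the cells alike. With a replicate block, 123 genes (0.960% of all tested) and 1 other ER gene (*Chac1*) were called in the liver. In the cells 7982 genes (60.1%) and 5 members were called, and *Pdia4* joined. Signs turned only for values not called. With library size only, *Canx* read -0.0055 in the liver, -0.0031 in the cells and 0.0021 for the difference. Without 1 library, liver values ran from -0.24 to 0.17 for *Hsp90b1*, from -0.022 to 0.15 for *Canx* and from -0.28 to 0.20 for *Manf*. In the cells *Manf* ran from -0.33 to 0.011, and the differences ran from -0.083 to 0.098 for *Canx* and from -0.31 to 0.18 for *Manf*. Each of the 10 genes had at least 273 counts in every library, and precision rests on 3 libraries a group.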
